A study of Rattus norvegicus with 14 samples.

Results

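Olfactory receptors form the largest gene family of the rat, and 175 of the 1145 receptor genes with a probe on the array gave a signal well above background in every choroid plexus (CP) sample. The CP is the epithelium with a vascular core that hangs in the brain ventricles and secretes cerebrospinal fluid. A gene counted as a receptor when its symbol was Olr with a number, or Or with a family number, a subfamily letter code and a member number, with or without a final letter. It was kept when its brightest probe was well above the local background on all 14 arrays, by the scanner software's own detection flag. The 175 receptors were thus chosen by their detection on every array, and their signal levels are given as a description with no test. No difference after gonadectomy was used in the choice, but detection differed between the groups, so receptors too dim on the sham female arrays were left out. With 13 arrays required, 196 receptors qualified, with a median female difference of 0.34 and 13 of them called. Over all features 2.74% passed as higher and 4.48% as lower. Of the 21 receptors added, 19 missed a sham female array. A larger female difference was thus partly built into that choice and adds no support.

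An olfactory receptor is a G protein-coupled receptor that, in the nose, sits on the cilia of an olfactory sensory neuron. There an odorant makes the receptor activate the G protein Golf, adenylyl cyclase Adcy3 raises cyclic AMP, and a cyclic nucleotide-gated channel opens. Each such neuron uses essentially a single receptor gene, and transcripts of some receptors are also known from tissues outside the nose, such as sperm, prostate and kidney.

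All rats were of the Wistar strain, 2 months old at surgery, and their lateral ventricle CP was collected 2 weeks later. Females were ovariectomized (OVX, 3 arrays) or sham-operated (3 arrays), and males were orchidectomized (OOX, 4 arrays) or sham-operated (4 arrays). Each array was hybridized with 1 Cy3-labelled pool of RNA from 3 animals. The methods name 3 pools per group where the labels give 4 for males. The sources do not say if a rat contributed to several pools, so p-values measure the spread between these pools. Signals are the background-subtracted intensity of a probe on a log2 scale relative to the median probe of the same array, so that 0 is the median probe and each unit is a doubling.

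The tissue label was checked against its markers. Transthyretin (Ttr), the main secreted protein of CP epithelium, had a mean signal of 8.29 with its spots saturated on all 14 arrays, so that this is a lower bound, and all 10 epithelial markers (Ttr, Kl, Folr1, Aqp1, Otx2, Kcnj13, Clic6, Enpp2, Slc4a5 and Trpv4) were well above background on all arrays. Of 8 measured markers of olfactory sensory neurons, Omp, Cnga2, Cnga4 and Stoml3 were not well above background on any array, and Gnal, Gng13, Adcy3 and Rtp1 were on all 14. The summed signal of these 8, in units of the array median, was 10.9 to 18.4 in sham females, 9.55 to 12.1 in OVX females, 8.22 to 15.8 in sham males and 9.17 to 11.9 in OOX males. That sum is mostly the signal of Gnal (mean 2.83) and Gng13 (mean 1.72), as the others had means of -2.69 or lower. It is therefore no measure of such neurons. Dim signal also moved with the groups. Negative-control spots had medians of -6.34 to -5.93 in sham females and -6.92 to -6.79 in OVX females, and 79.7% to 82.7% against 85.3% to 87.2% of spots were well above background. In males the negative controls lay between -6.81 and -5.94 on sham and between -6.72 and -6.24 on OOX arrays. Markers of other cell types shifted too. The 10 neuron markers had a median difference of -0.90 after OVX and 0.51 after OOX, and the 6 fibroblast markers -0.47 and 0.51, although 0 of either list passed in a sex. The summed neuron signal was 17.9 to 56.3 on sham and 21.0 to 31.4 on OVX arrays, and the summed fibroblast signal 220.3 to 267 and 142 to 221, with overlap. Of 6 spermatid markers 4 (Tnp1, Tnp2, Smcp and Hmgb4) passed as higher in OOX males and 0 in OVX females, with a summed signal between 0.910 and 1.08 on sham and between 2.31 and 3.86 on OOX arrays. In females that sum was between 0.678 and 2.85 (sham) and between 2.75 and 3.77 (OVX). The part of these in the receptor results was not tested.

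Most of the 175 receptors were dim. Their mean signals over the arrays ran from -3.43 to 3.96 with a median of -1.92 and quartiles of -2.53 and -0.94, and 22 of them lay above the array median. All 19615 genes and unnamed probes detected on every array had a median of 1.89. The brightest was Or2ak6 (Olr1439 in older naming), with a mean of 3.96 and single arrays between 3.39 and 4.34. Or8s5 (Olr1105) followed at 3.28, Or10g9b (Olr1335) at 3.07 and Or6al1 (Olr1) at 2.60. Or2y1i (Olr1395) at 2.41, Or10am5 (Olr3) at 2.27 and Or1f26 (Olr1375) at 2.17 came next, and Or4d6 at 1.96, Or8w1b at 1.82 and Or4k48b at 1.25 completed the 10 brightest. Ranges of single arrays overlapped between neighbours in this order, and since probes differ in how brightly they report a transcript, it orders probe signals and not transcript amounts.

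**Figure D1:**
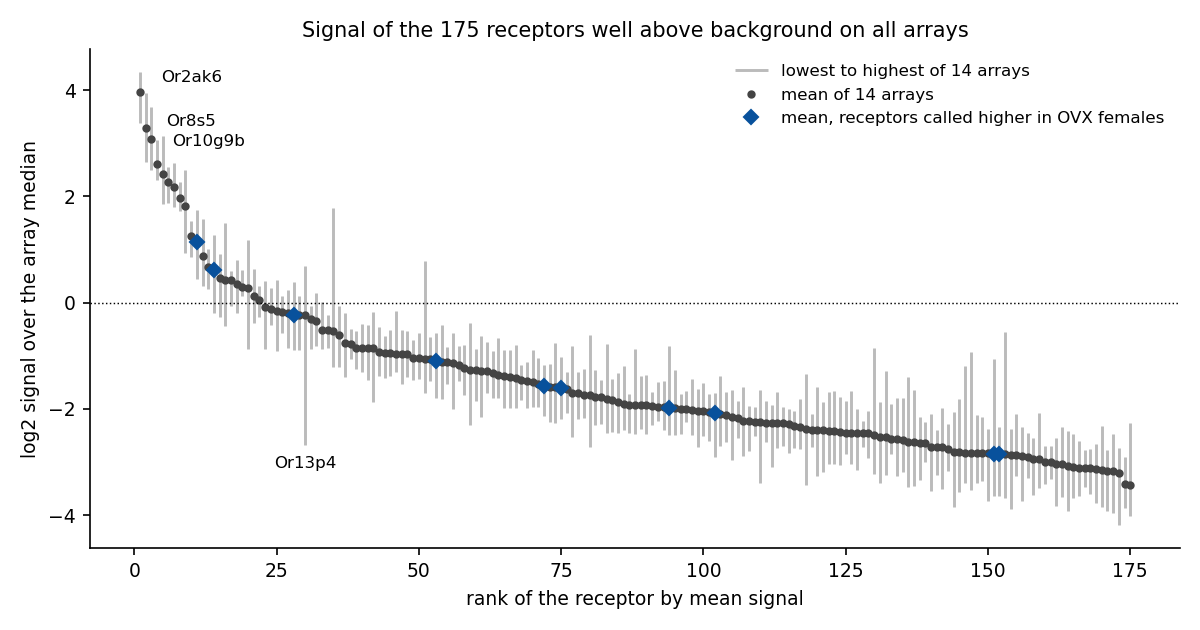
Signal of the 175 receptors, ordered by rank of the mean (horizontal axis), as log2 over the array median (vertical axis); points are means of 14 arrays, grey lines run from the lowest to the highest array, and diamonds are the 10 receptors called higher in OVX females. Only 22 receptors lie above 0, and the diamonds are spread from bright (Or4a80, mean 1.13) to dim (Or2b4, mean -2.84).

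At the other end of the order, Or5w12 had a mean of -3.43, Or1e33 one of -3.41 and Or52n4e one of -3.21. Just outside the choice stood 21 receptors detected on 13 arrays, the brightest of them Or52l1 at -2.59, Or51v8 at -2.81 and Olr59, the rat Or51e2, at -2.86. For 19 of these 21 the array that missed was a sham female array, 10 times replicate 3, 8 times replicate 1 and once replicate 2. A further 524 receptors were well above background on 0 arrays.

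Detected receptors came from nearly every family. Families 2 and 4 had 22 each, of 114 and 142 receptors measured, family 5 had 19 of 157, family 6 had 18 of 83, family 1 had 15 of 92 and family 8 had 14 of 122. Class I receptors (families 51, 52, 55 and 56), an ancient branch of the family, supplied 23 of 120, or 19.2%, and class II 144 of 970, or 14.8%. Family 7 had 3 of 55 and family 55 had 0 of 2. The brightest class I members were Or51a7b at 0.88, Or51i2 at 0.46, Or51f1g at 0.43 and Or51l4 at -0.12. In family 2 the next after Or2ak6 and Or2y1i were Or2av9 at -0.15 and Or2av10 at -0.18, which neighbour each other in the genome. In all, 36 of the 175 (20.6%) had another detected receptor as the adjacent gene, against 155 of the 970 other receptors (15.98%).

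Receptors known from tissues outside the nose were present in part. Or51e1, known from prostate, was among the 175 with a mean of -2.03, and Or1d2, whose human counterpart is known from sperm, with a mean of -1.27. Or51e2, known from prostate and kidney, reached 13 arrays as given above, and Or10j5 reached 1. Or2at4 was not found under its name among the probes. Of 6 receptors that appear in the study's lists of large changes, Or9i14 (Olr382) was well above background on 7 arrays, Or2n1l (Olr1679) on 4, Or4a73 (Olr709) on 3, Or1l4 (Olr428) and Or4c110 (Olr670) on 2 and Or4c99 (Olr624) on 0. None of these 6 was therefore among the 175.

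For 166 of the 175 receptors a single probe was on the array. Of the 11 further probes of the other 9 receptors, 2 were well above background on all arrays, those of Or1f20 and Or10p22. Probes of 1 receptor differed in mean signal by 0.22 (Or1f20) to 5.01 (Or1x2d, with -1.06 against -6.07), so detection on every array held for the brighter probe only in 7 of the 9. After OVX 3 of the 11 further probes differed in the other direction from the brightest one, and after OOX 6 did. In Or10p22 the brighter probe differed by 0.60 and the dimmer by 0.18 after OVX, and by -0.05 and 0.66 after OOX.

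Signals of most of the 175 receptors were higher in OVX than in sham females. The study itself counted more olfactory transduction genes as down-regulated than as up-regulated in females. Its methods name no requirement of detection on every array, so that count is of another set of genes. Of the 175, 10 passed as higher and 0 as lower at an adjusted p under 0.05, that is 5.71% higher. Of all 27517 genes and unnamed probes tested, 2.74% passed as higher and 4.48% as lower, and of the 19615 detected on every array 1.71% passed as higher. The 3 OVX arrays lay entirely above the 3 sham arrays for 70 receptors (40%), against 14.5% of all features and 12.7% of the detected ones, and entirely below for 1, against 14.7% of all features. At an unadjusted p under 0.05 with limma, 55 were higher and 2 lower, where 12.1% of all features were higher and 10.3% lower. At the thresholds that the methods name (p under 0.05 and a fold above 1.5), 28 receptors were higher and 1 lower, against 8.12% and 7.97% of all features. The number that passed was 2 after normexp background correction, 0 after quantile normalization and 0 with scan day as a block. It was 0 when sham replicate 1, sham replicate 3 or any OVX array was left out, and 5 without sham replicate 2. Of all 27517 features 203 passed after normexp and 143 after quantile normalization. A scan day block leaves only 1 OVX array, replicate 1, to set against the sham arrays, so its count decides nothing. With single arrays left out, 1998 of all features passed without sham replicate 2, and 4 to 20 without any other array. Calls were thus lost over all features and not only among the receptors.

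As a list, the 175 differed by a median of 0.30 on the log2 scale, with quartiles of 0.15 and 0.48, and 154 of them (88%) were above 0. The median was 0.0977 after normexp background correction, 0.175 after quantile normalization and 0.195 with scan day as a block. The scan days were uneven: day 1 held the 3 sham arrays with only replicate 1 of the OVX group, and the other OVX arrays came on day 2. All features had a median of -0.04, with 45.3% above 0. The per-array median of the 175 was -2.08, -2.02 and -2.03 in sham females and -1.84, -1.77 and -1.71 in OVX females, so these groups did not overlap. The number of receptors well above background was 220, 253 and 216 in sham and 341, 370 and 408 in OVX arrays, again without overlap. The share of all spots well above background, 79.7% to 82.7% in sham and 85.3% to 87.2% in OVX arrays, did not overlap either. The sum of a tissue's RNA does not tell fewer cells of a type from less RNA per cell, and that holds for every difference given here.

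**Figure D2:**
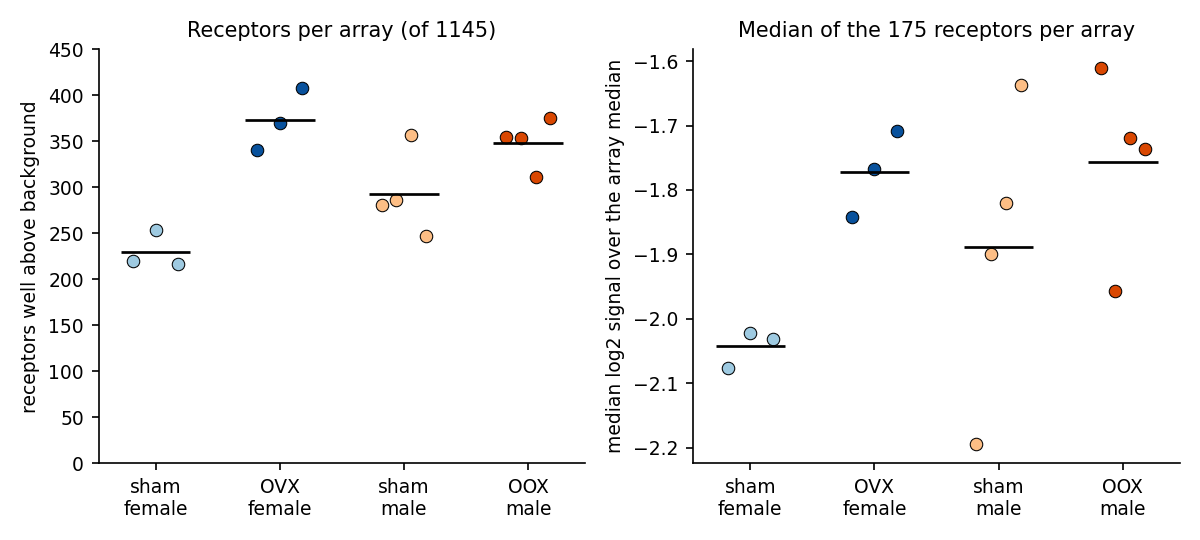
Left, number of the 1145 measured receptors well above background on each array; right, median log2 signal of the 175 receptors on each array, over the array median. Each point is 1 array (1 pool of 3 rats) and the line is the group mean; the 3 OVX arrays (341 to 408 receptors) lie above the 3 sham female arrays (216 to 253), while the OOX and sham male arrays overlap.

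Other dim features were also higher in OVX females, by less. Between the quartiles of the receptors' mean signal, 87 receptors had a median difference of 0.32, and 2856 other features detected on every array one of 0.17, with 95.4% and 68.5% above 0. In the bin from -3 to -2 the medians were 0.34 for 63 receptors and 0.26 for 1563 others, and from -1 to 0 they were 0.28 for 26 receptors and 0.04 for 2047 others. Above 2 they were -0.20 for 7 receptors and -0.12 for 9557 others. Among features detected on every array, the difference was thus largest in the dim ones, for receptors and others alike. The negative-control spots moved the other way, with medians of -6.34 to -5.93 in sham and -6.92 to -6.79 in OVX females. Their part in the receptor differences was not tested.

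**Figure D3:**
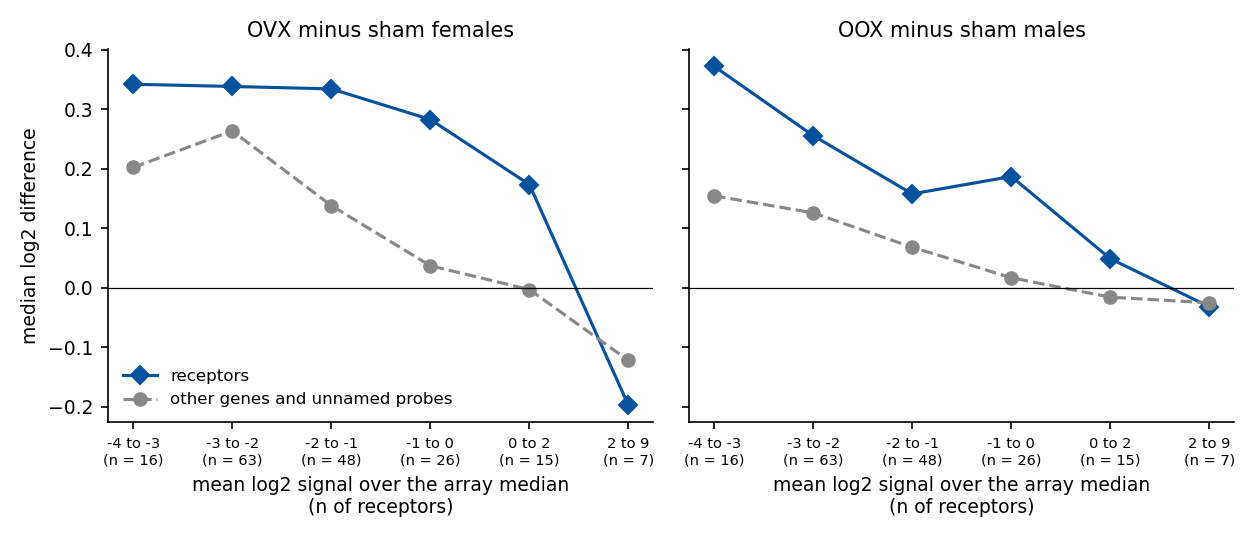
Median log2 difference after gonadectomy (vertical axis) in bins of mean log2 signal over the array median (horizontal axis), for the 175 receptors (diamonds) and for all other features detected on every array (circles), in females (left) and males (right). In the bins below 2 the receptors lie above the other features, and the brightest bin has the lowest value, -0.20 for receptors in females against 0.34 in the dimmest.

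Of the 10 receptors that passed in females, Or13l2 (Olr390) differed most. It gave -0.19, -0.03 and 0.03 in sham and 1.16, 1.28 and 0.72 in OVX arrays, a difference of 1.11 ± 0.18 (SE; adjusted p = 0.0401), which is 2.17-fold. Or4a80 (Olr714), the brightest of the 10, read 0.85, 0.45 and 0.66 in sham and 1.74, 1.47 and 1.59 in OVX arrays, a difference of 0.95 ± 0.15 (adjusted p = 0.0401). Or14j5e (Olr1688) read -2.75, -2.53 and -2.91 in sham and -1.86, -1.89 and -1.69 in OVX arrays, a difference of 0.92 ± 0.15 (adjusted p = 0.0401). In each of these receptors every OVX array was above every sham female array.

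Smaller differences with a small spread were found in Or4c103, Or1p1 and Or51b6. Or4c103 (Olr651) gave -2.29, -2.44 and -2.35 in sham and -1.68, -1.76 and -1.75 in OVX females, a difference of 0.63 ± 0.11. For Or1p1 (Olr1516) the values were -1.95, -1.98 and -1.77 in sham and -1.30, -1.29 and -1.16 in OVX females, a difference of 0.65 ± 0.12. The class I receptor Or51b6 (Olr132) had -0.50, -0.50 and -0.56 in sham and 0.08, 0.02 and 0.32 in OVX females, a difference of 0.66 ± 0.13. All 3 had an adjusted p of 0.0401, and in none did the female groups overlap.

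The other 4 lay closer to the threshold, with adjusted p-values of 0.0450 to 0.0488. Or2b4 (Olr1694) read -3.63, -3.50 and -3.16 in sham and -2.81, -2.34 and -2.40 in OVX females, a difference of 0.91 ± 0.19. In Or1j15 (Olr403) the values were -1.52, -1.80 and -1.43 in sham and -1.02, -0.81 and -0.87 in OVX females, a difference of 0.69 ± 0.15. These groups did not overlap either, nor did those of the other two. Or2n1i (Olr1682) read -3.58, -3.65 and -3.28 against -2.96, -2.58 and -2.57, a difference of 0.80 ± 0.17, and the class I receptor Or52e2 (Olr80) -2.18, -2.03 and -1.82 against -1.33, -1.41 and -1.01, a difference of 0.76 ± 0.17. Or2n1i was also among the 5 receptors with the widest range over all arrays, because sham male replicate 2 read -1.07.

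**Figure D4:**
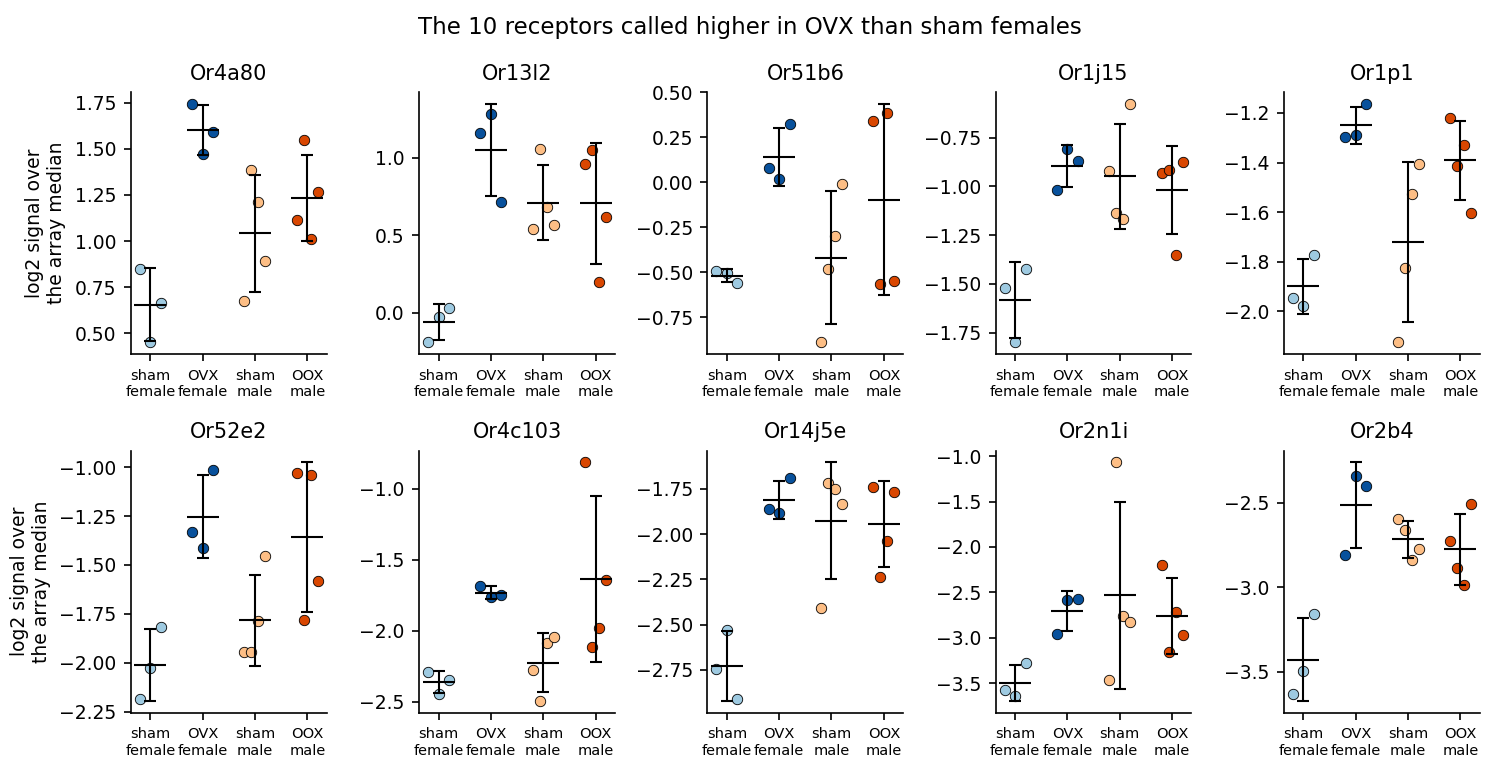
Log2 signal over the array median (vertical axes, a separate scale for each receptor) of the 10 receptors that passed in females; each point is 1 array, and lines and bars are the group mean and SD (n = 3 female or 4 male arrays per group). In every panel the OVX points lie above the sham female points, whereas sham and OOX male points overlap.

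In males the same 10 differed by -0.23 (Or2n1i) to 0.59 (Or4c103), with overlapping groups and adjusted p-values of 0.676 to 0.997. In Or13l2, Or14j5e, Or2b4 and Or1j15 the 3 sham female arrays lay below all 11 other arrays. Sham males read 0.54, 1.06, 0.68 and 0.56 for Or13l2, for example, above the 0.03 of the highest sham female array. All sham female arrays were scanned on day 1 and all male arrays on day 2. Sex and scan day cannot be told apart in that contrast. On the only slide that held both female groups, 1 OVX against 1 sham array, all 10 were higher in the OVX array, by 0.32 (Or2n1i) to 1.13 (Or13l2). That direction was fixed in advance, since in these 10 every OVX array lay above every sham female array, and it adds no support. On that slide 139 of the 175 were above 0 with a median of 0.21, where all detected features had a median of 0.05 and 60.8% above 0.

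The 10 receptors come from families 1, 2, 4, 13, 14, 51 and 52, with 2 each in families 1, 2 and 4 and 8 of class II. Most receptor gene models in the reference annotation end where the coding sequence does: 163 of the 175 have a length that is a multiple of 3, and in 143 of the 144 with a 300-base window around the annotated start (250 bases before and 50 after, RefSeq, assembly GRCr8) the start codon sits at that start. The window is thus the sequence before the coding start, which need not be the promoter. A window was found for 8 of the 10. It was searched on both strands for TAATTA, a homeodomain motif of the kind bound by Lhx2 and Emx2; for the palindromic O/E motif of Ebf factors; for the full palindromic oestrogen response element; and for its arm AGGTCA, which overlaps with it. TAATTA was in 3 of the 8, in 27 of the 144 members (18.8%), in 18.7% of the windows of all measured receptors and in 5.36% of all 33469 windows of the table. The full oestrogen response element and the O/E motif were in 0 of the 144 (0.0269% and 0.834% of all windows), and AGGTCA was in 0 of the 8, in 17 of the 144 (11.8%) and in 16.2% of all windows. In the 973 windows of all measured receptors AGGTCA was in 12.4%, and the full element and the O/E motif in 0. Members' windows had a median GC content of 37%, against 35.3% over those of all measured receptors and 51.7% over all windows. A low GC content was thus not particular to the detected receptors.

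The 3 windows with TAATTA among receptors that passed in females, and that of Or51b6, which has none of these letters, are shown as examples of the AT-rich sequence before the coding start, with motif matches in capitals. They lie at chr20:598566-598865 (plus strand) for Or14j5e, chr20:712626-712925 (minus strand) for Or2b4, chr1:166973871-166974170 (minus strand) for Or52e2 and chr1:167759288-167759587 (plus strand) for Or51b6, in GRCr8, and are written 5′ to 3′ on the strand of the gene.
Or14j5e: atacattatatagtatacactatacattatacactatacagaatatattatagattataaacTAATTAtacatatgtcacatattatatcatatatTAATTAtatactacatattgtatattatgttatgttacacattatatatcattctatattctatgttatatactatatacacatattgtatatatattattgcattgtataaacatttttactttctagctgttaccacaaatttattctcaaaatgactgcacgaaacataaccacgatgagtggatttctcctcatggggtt
Or2b4: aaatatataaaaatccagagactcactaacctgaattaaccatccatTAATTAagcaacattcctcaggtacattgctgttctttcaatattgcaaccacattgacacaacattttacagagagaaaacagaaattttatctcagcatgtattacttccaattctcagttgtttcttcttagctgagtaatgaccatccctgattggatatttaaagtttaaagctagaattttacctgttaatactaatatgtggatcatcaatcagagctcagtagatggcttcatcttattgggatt
Or52e2: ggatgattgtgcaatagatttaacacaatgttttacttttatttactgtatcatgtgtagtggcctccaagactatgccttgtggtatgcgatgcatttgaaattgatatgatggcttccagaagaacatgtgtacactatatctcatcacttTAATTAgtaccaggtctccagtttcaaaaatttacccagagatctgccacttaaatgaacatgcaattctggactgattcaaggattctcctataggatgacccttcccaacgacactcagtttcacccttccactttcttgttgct
Or51b6: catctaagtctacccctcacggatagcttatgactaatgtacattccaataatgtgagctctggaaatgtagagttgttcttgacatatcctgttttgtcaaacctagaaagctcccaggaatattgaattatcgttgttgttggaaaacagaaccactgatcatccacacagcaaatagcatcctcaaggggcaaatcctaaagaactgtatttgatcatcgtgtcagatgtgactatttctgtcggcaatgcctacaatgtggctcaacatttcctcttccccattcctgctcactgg

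The window of Or14j5e holds the motif at 2 places and has a GC content of 22.7%, the lowest of those shown. The others have 32.7% (Or2b4), 38.7% (Or52e2) and 41.7% (Or51b6). A match is a stretch of letters and says nothing of a bound factor.

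In males no receptor passed. With limma 0 of the 175 were called as higher and 0 as lower, where 0.0581% and 0.00363% of all features were, and at an unadjusted p under 0.05 19 were higher and 2 lower, against 4.52% and 3.17% of all features. At the methods' thresholds with limma p-values 6 were higher and 0 lower, against 2.83% and 0.843% of all features. With the methods' t-test 3 (1.71%) were higher and 0 lower, where 1.88% of all features were higher. The median difference of the 175 was 0.19, with 127 (72.6%) above 0, while all features had a median of 0.01 and 51.3% above 0. The median turned to -0.0125 after normexp background correction and was 0.0896 after quantile normalization. The OOX arrays lay entirely above the sham arrays for 10 receptors and entirely below for 1, against 2.53% and 1.82% of all features. The per-array medians, -1.61, -1.96, -1.72 and -1.74 in OOX and -2.19, -1.90, -1.82 and -1.64 in sham males, overlapped, as did the numbers of receptors well above background (311 to 375 and 247 to 357). On the slide with both male groups, 1 OOX against 2 sham arrays, the median was 0.34 and 153 (87.4%) were above 0, where all detected features had a median of 0.09 and 61.2% above 0.

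The 5 receptors with the smallest p in males were Or2t1, Or52r1, Or6b13, Or12d13 and Or6f2. Or52r1 (Olr50), of class I, read -3.46, -2.94, -2.70 and -2.77 in sham and -1.95, -2.41, -1.40 and -2.44 in OOX males, a difference of 0.92 ± 0.27 (adjusted p = 0.513). Or2t1 (Olr1606) read -3.39, -3.07, -2.95 and -2.84 in sham and -2.26, -2.12, -2.48 and -2.68 in OOX males, a difference of 0.68 ± 0.18 (adjusted p = 0.461). Both were higher in every OOX array than in every sham array, although neither passed over all features. Or6b13 and Or6f2, which are neighbours in the genome and have a further detected receptor, Or6ae1, beside them, differed by 0.68 ± 0.21 and 0.49 ± 0.17, and Or12d13 by 0.52 ± 0.18. Or52r1, Or12d2b and Or6c69b were the 3 of the 175 whose gonadectomized arrays lay above the sham arrays in both sexes, and none of them passed in either. The same count over all features was not made, so these 3 are given as a description only.

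Whether the effect of gonadectomy differed between the sexes was tested as the male minus the female difference. With limma 0 of the 175 passed in either direction, where 0.142% of all features passed as higher and 0.0872% as lower in males, and at an unadjusted p under 0.05 the male difference was the higher in 2 and the lower in 12, against 5.99% and 5.66% of all features. The smallest p was that of Or2b4, where the male difference was lower by 0.97 ± 0.23 (-0.97, adjusted p = 0.144). For Or13l2 the value was -1.12 ± 0.31 (adjusted p = 0.209), for Or14j5e -0.93 ± 0.26, for Or1f26 -0.71 ± 0.21 and for Or1f30 -0.58 ± 0.18. Their larger female effect is therefore not shown to be particular to females. By direction alone 116 receptors were higher after gonadectomy in both sexes, 38 in OVX females only, 11 in OOX males only, and 10 were lower in both.

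**Figure D5:**
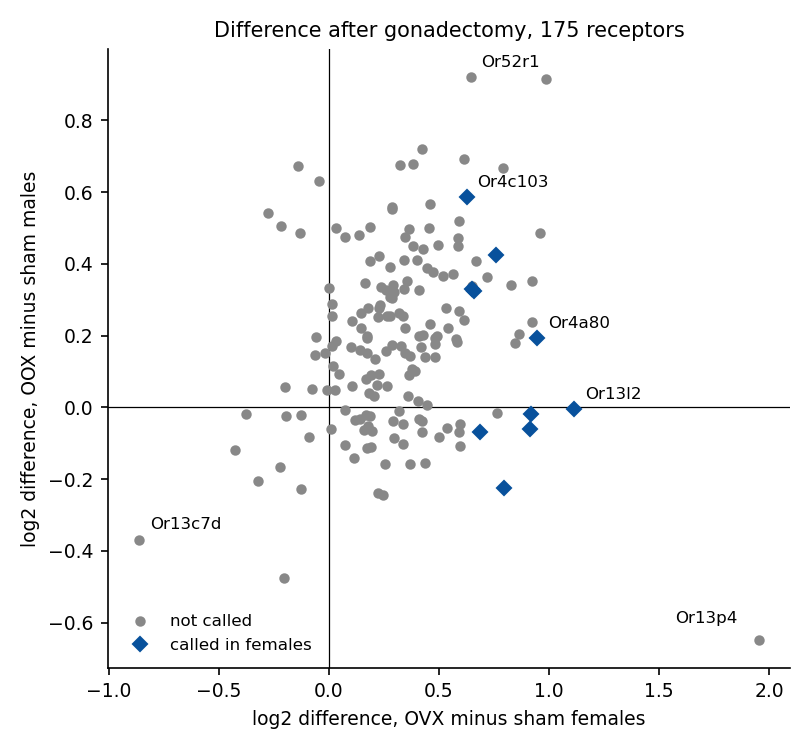
Log2 difference of each of the 175 receptors in OVX minus sham females (horizontal axis) and in OOX minus sham males (vertical axis); diamonds passed in females. Most points (116) lie in the upper right of the plot, Or13p4 lies apart at 1.95 and -0.65, and the diamonds range from -0.23 to 0.59 in males.

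Some single receptors went another way; these were picked after their values were seen. Or13p4 had the widest range of all, 3.36: sham female replicates 1 and 3 and OOX male replicate 4 read -2.54, -2.67 and -2.61, and the other 11 arrays between 0.16 and 0.69. Its difference of 1.95 ± 0.85 in females did not pass (adjusted p = 0.246), and both low female arrays came from the sham group. Or13c7d (Olr836) was the receptor with the most negative female difference, with -0.57, -0.66 and -0.89 in sham and -0.86, -2.01 and -1.84 in OVX females (-0.86 ± 0.31, adjusted p = 0.171), and its groups overlapped. The brightest receptor, Or2ak6, read 4.19, 4.22 and 4.09 in sham and 3.96, 3.67 and 3.74 in OVX females, a difference of -0.37 ± 0.13 (adjusted p = 0.157), and was the 1 receptor whose OVX arrays lay entirely below the sham arrays. The brighter probe of Or1f20 stood at -1.21 to -0.33 on 13 arrays and at 1.77 in OOX male replicate 4, the array that was low for Or13p4. Its other probe, also well above background on all arrays, read -1.17 to -0.39 over all 14, so the high value was of 1 probe only.

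Of the other genes of the olfactory pathway, 38 of a list of 42 were measured and 22 were well above background on all arrays. The stimulatory G protein Gnas had a mean of 8.13, saturated on all arrays, the chloride importer Slc12a2 6.97, and Gnal, which encodes Golf, 2.83. Adcy3, the cyclase of the cascade, was dim at -2.69. In females 2 of the 38 passed as higher, the channel subunit Cngb1 by 0.95 (12 arrays well above background) and the odorant-binding protein Obp1f by 1.13 (3 arrays). Passing as lower were 6 (Prkg2, Pdc, Clca5, Omp, Cyp2g1 and Obp2b), all of them not well above background on any array. Their differences ran from -0.81 (Clca5) to -0.75 (Cyp2g1), and the negative-control spots were also lower in OVX than in sham females. Of all features 2.74% passed as higher and 4.48% as lower. In males 0 of the 38 passed with limma, and none of these genes that was detected on every array passed in either sex. The receptor chaperone Rtp1, which brings receptors to the cell surface, differed by 0.57 in females (adjusted p = 0.122) and by 0.32 in males (adjusted p = 0.858). The nuclear factors Lhx2 and Ebf1, which act in the transcription of receptor genes in the nose, were detected on every array at -0.19 and -1.80 and did not pass in either sex.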

How the data were processed

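Total RNA pools of lateral ventricle CP were hybridized to 1-colour rat arrays (14 arrays on 5 slides, 2 scan days). The authors' scanner software, Agilent Feature Extraction 10.5.1.1 with protocol GE1_105_Dec08, gave the deposited intensity values, background-subtracted and not scaled between arrays; the deposited log2 value table, which the authors centred on the median, served as an alternative. Control and outlier spots were left out, spots of a probe were averaged on the log2 scale and the array median was subtracted. Of 30367 probes, 18004 took the names of 15154 genes through a RefSeq table of GRCr8, since the arrays were annotated on rn4; 12363 stayed unnamed. The brightest probe stood for each gene, and 4 symbols ending in -ps were left out. No member was saturated.

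Groups were compared within each sex with limma 3.58.1 in R 4.3.3 (lmFit, eBayes, no covariate), adjusted over all 27517 features, and between the sexes in 1 fit of all arrays. The fits were tested on simulated data. Summaries were made in Python 3.11.15 (numpy 2.4.6, pandas 2.3.3). Precision is limited by the number of arrays; arrays of a group correlated at 0.979 to 0.992 across all features, which are not independent, and at 0.930 to 0.981 across the 175. Receptors were named in the text as the 10 brightest, those called in a comparison (or, with fewer than 5, the 5 with the smallest p), those at the edge of the choice, the brightest of class I and of the largest families, those known from other tissues or from the study's lists, receptors with disagreeing probes and pathway genes called or bright; a planned comparison of protein identity was not made, since no protein sequences were used here. The members, lists and rules were chosen with earlier results of these data known. Other settings tried were 75th percentile scaling, quantile normalization, normexp with an offset of 50 (on median signals, since mean signals were not used here), filters, blocks, array weights, other tests and leaving out arrays.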

Additional observations from a re-analysis of the deposited data

Results flagged for a closer look

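In the male groups of 4, 94 sets of values, of the receptors named here and of the per-array median, were compared for a single array far from the other 3, and 10 stood apart, where chance gives about 1 in 20. Some of these receptors, Or13p4 among them, were named after their values were seen, and the sets share arrays. That rate is therefore no fair reference for the 10. Or6b13 did so in both groups: sham replicate 1 read -2.16 (the other arrays -1.48 to -1.42) and OOX replicate 4 read -1.33 (-0.88 to -0.79). Its neighbour Or6f2 read -3.62 in sham replicate 1 (-3.09 to -3.01), and Or1x2d read 0.79 there (-1.51 to -1.21). Or13p4 read -2.61 in OOX replicate 4 (0.20 to 0.69). In OOX replicate 2, Or4k48b read 0.86 (1.35 to 1.38) and Or51i2 read 0.92 (0.55 to 0.58). Or1j15 read -1.35 in OOX replicate 3 (-0.93 to -0.88). In sham replicate 4, Or10g9b read 3.57 (3.03 to 3.11) and Or10p22 -1.68 (-2.50 to -2.36).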

How the results depend on the processing

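The 10 receptors that passed in females depended on the processing. Their number was 5 after a filter on dim probes, 2 after normexp background correction, 5 with all groups in 1 fit and 0 after quantile normalization, with scan day or slide as a block, or with the methods' t-test (23 higher and 0 lower at the methods' thresholds in females, 3 and 0 in males); with 75th percentile scaling or the value table it was 13, of which 9 and 10 were among the 10. With the methods' t-test at those thresholds, 5.98% of all features were higher and 1918 of 27517 lower in females. In males 1.88% of all features were higher and 173 lower, close to the 1.71% of receptors that were higher. Of all features 203 passed in females after normexp and 143 after quantile normalization. Leaving out 1 array gave 0 to 5 receptors: 5 without sham female replicate 2, of which 3 were among the 10, and 0 without any other female array (40 to 64 receptors at an unadjusted p under 0.05). Of all features 1998 passed without sham female replicate 2, and 4 to 20 without any other female array. Nothing in the labels pairs replicate numbers across groups, and deviations of same-numbered arrays correlated at -0.02 to 0.14 in females and -0.31 to 0.14 in males; with a replicate block 0 receptors passed in females, where 0 of all features did, and 0 in males. The slide block leaves 1 array of each female group to compare, and 0 of all features passed. Each of the 10 kept a positive difference under every alternative run, the smallest 0.12 (Or2n1i). The median difference of the 175 in females was 0.0977 after normexp, 0.175 after quantile normalization, 0.195 with scan day as a block, 0.209 with slide as a block and within the shared slide, 0.351 in the value table and 0.377 with 75th percentile scaling; without single arrays it was 0.252 to 0.351. In males the median turned to -0.0125 after normexp (all features -0.06), ranged from 0.0896 to 0.343 under the other alternatives, and 1 receptor passed with slide as a block, Or13p4, as lower by 2.91 (-2.91), which rests on the low OOX replicate 4. No receptor passed in the difference between the sexes under any alternative. The causes of these changes were not tested. The 175 became 196 when 13 arrays sufficed, 120 with symbols ending in a digit only, an alternative chosen after seeing the data, and 175 to 185 without single arrays. No receptor at these signals has more than 4 arrays a group behind it, so a difference that did not pass is not shown to be absent.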
